A study of Mus musculus with 10 samples.

Results

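The genes described are the tumor necrosis factor (TNF) superfamily ligands, their receptors and the adaptors that bind those receptors. Members were chosen by symbol: every table row named Tnfrsf, Tnfsf or Traf with a number, and 14 further genes (Tnf, Lta, Ltb, Ltbr, Fas, Fasl, Cd27, Cd40, Cd40lg, Cd70, Birc2, Birc3, Tradd and Ripk1). The rule found 52 of the 17274 genes in the table. Of these, 34 had a mean of at least 0.5 FPKM (reads scaled to gene length and library size) over all livers and were tested, and 18 lay under that level.

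RNA was sequenced from 10 livers of wild-type mice with nonalcoholic steatohepatitis (NASH), an inflamed fatty liver. All of the mice, controls included, ate CDAHFD, a high-fat diet without choline and with defined amino acids in place of protein. Each liver came from a mouse given adeno-associated virus (AAV) into a vein: 5 received control AAV and 5 received AAV encoding miR-181d-5p. The labels do not name the vector's promoter or serotype or the mice's ages, or say that each sample is its own animal, so p-values measure only the spread between these samples.

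TNF family ligands are mostly membrane proteins that act as trimers, many of them released by proteases. Receptors with an intracellular death domain can assemble a complex with FADD and caspase-8 that kills the cell. TNF receptor 1 can also assemble TRADD, RIPK1, TRAF2 and the ubiquitin ligases cIAP1 and cIAP2, a complex that activates NF-kB. Receptors without a death domain recruit TRAF proteins directly. In the liver, TNF, TRAIL and Fas ligand act on hepatocytes, lymphotoxin and TWEAK are known from regeneration and the ductular reaction, and 4-1BB, OX40 and CD27 are costimulatory receptors of lymphocytes.

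The vector encodes a microRNA whose bases 2 to 8, the seed, pair with matching sites in target 3' UTRs. The 4 mature miR-181-5p forms in RefSeq (GRCm38.p6) share 1 seed, ACAUUCA, shown in capitals, and are printed because any of them could pair with the sites that follow. miR-181d-5p lies at chr8:84178759-84178781 on the minus strand.
mmu-miR-181d-5p: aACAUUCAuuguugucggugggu
mmu-miR-181a-5p: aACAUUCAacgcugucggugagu
mmu-miR-181b-5p: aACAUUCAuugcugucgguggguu
mmu-miR-181c-5p: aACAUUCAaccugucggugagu

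Seed matches were searched in the longest GENCODE vM21 3' UTR of each gene, on the transcribed strand, as TGAATGTA (8mer), TGAATGT (7mer-m8) or GAATGTA (7mer-A1), each stretch counted once under its longest form. Such a match was present in 12 of the 34 tested members (35.3%) and in 2702 of 11770 tested genes with a 3' UTR (23.0%). An 8mer was present in 5 members (14.7%) and in 698 genes (5.93%). The median 3' UTR length was 1224 bases in the members and 1114 bases in all of these genes. The 8mer sites of Tnf, Tnfsf10 (TRAIL), Tnfrsf11b (osteoprotegerin), Tnfrsf21 (death receptor 6) and Traf6, and both 7mer sites of Ltb (lymphotoxin beta), are printed as the longest matches and as the matches of the only site-bearing member with an unadjusted p under 0.05. All lie in the last exon of the transcript searched, on mm10, with the match in capitals and 10 transcript bases on either side.
Tnf, chr17:35199663-35199670 (-), 8mer: tatttgcttaTGAATGTAtttatttgga
Tnfsf10, chr3:27337199-27337206 (+), 8mer: aaagcttattTGAATGTAagagtatggc
Tnfsf10, chr3:27337406-27337413 (+), 8mer: atgaaccaaaTGAATGTAttaattaata
Tnfrsf11b, chr15:54250686-54250693 (-), 8mer: tctgagaaatTGAATGTAccttatttaa
Tnfrsf21, chr17:43088176-43088183 (+), 8mer: ttcctgaaagTGAATGTAtaaagccttt
Traf6, chr2:101698091-101698098 (+), 8mer: ttacttagtgTGAATGTAttgtccactg
Ltb, chr17:35196263-35196269 (+), 7mer-A1: ggggagaacgGAATGTAggacacgaat
Ltb, chr17:35196292-35196298 (+), 7mer-A1: tgaaaataaaGAATGTAaactatgccg

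Shorter matches lay in Ripk1, Tnfrsf10b, Tnfrsf11a, Tnfrsf19, Tnfrsf26 and Traf1, and in the untested Fasl, Tnfsf11 and Tnfsf8. A match is a description of letters in this window and does not show that the microRNA binds there.

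Across all genes, limma called 0 of 12053 (0%) at an adjusted p under 0.05, and so 0 members. At an unadjusted p under 0.05 it gave 1768 genes, 1161 lower in miR-181d-5p livers (9.63%) and 607 higher (5.04%). A fit of limma voom to the recovered reads also called 0 genes after adjustment and gave 1744 without it. Rescaling the livers to a common FPKM sum changed the unadjusted split to 1266 lower and 347 higher, and quantile normalization changed it to 942 lower and 997 higher. Higher genes thus made up 34.3%, 21.5% and 51.4% of the unadjusted calls under the 3 scalings. Groups did not overlap in 175 genes that were lower (1.45%) and 123 that were higher (1.02%). Assigned reads ran from 18985912 to 20657019 per liver.

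Among the 34 tested members, 27 had a lower and 7 a higher mean log2 level in miR-181d-5p livers. The share lower was 79.4% against 54.5% of all genes tested, and the median log2 change was -0.09 against -0.02. The count of lower members was 28 with a common FPKM sum and 19 with quantile normalization, where the medians were -0.04 for members and 0.01 for all genes. Removing a trend with gene length gave 23, without miR-181d-5p liver 4 it was 21, and the other single livers left out gave 23 to 27. At an unadjusted p under 0.05 there were 5 lower members (Tnfrsf9, Tnfrsf1b, Ltb, Birc3 and Tnfsf13b, 14.7% of the 34) and 1 higher member (Ltbr). Of all genes tested, 9.63% were lower and 5.04% higher at that threshold. Tnfrsf9 and Tnfrsf4 passed the 0.5 FPKM filter through their control livers, with miR-181d-5p means of 0.383 and 0.457 FPKM. The filter thus favours counting these members as lower. With a filter at 1 FPKM, 3 of 28 members (10.7%) were lower at that threshold and 1 was higher. The lowest adjusted p of a member was 0.24, for Tnfrsf9, so each difference that follows is given as values and none as a call.

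**Figure D1:**
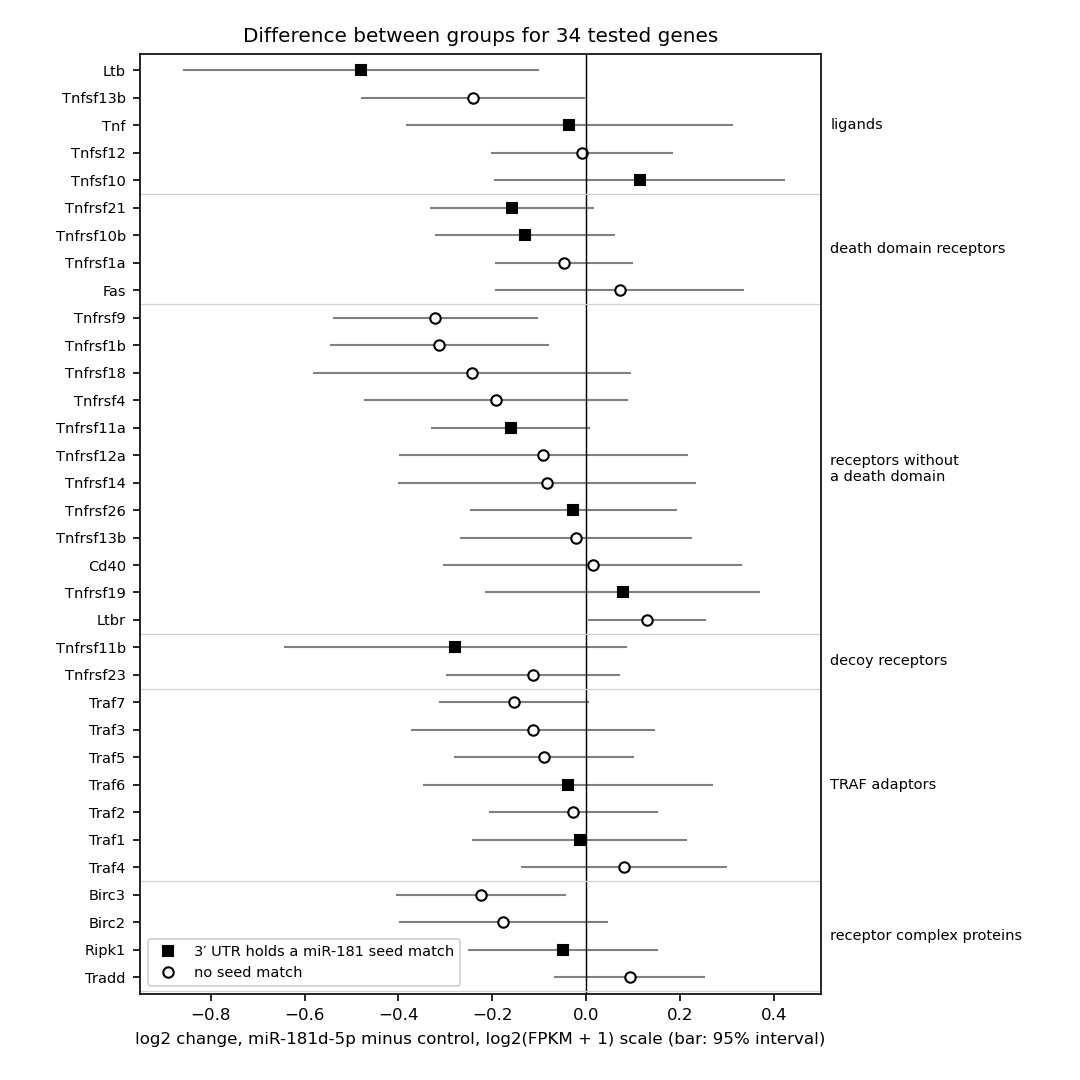
Log2 change of each of the 34 tested members (miR-181d-5p minus control, log2(FPKM + 1) scale) with its 95% limma interval, by role. Squares are members with a seed match. Of the 34 points, 27 lie left of 0, and the intervals of Tnfrsf9, Tnfrsf1b, Ltb, Birc3, Tnfsf13b and Ltbr do not cross 0.

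By level, 6 members stood at a mean of 10 FPKM or more, 22 between 1 and 10, and 6 between 0.5 and 1. The highest were Tnfrsf1a (TNF receptor 1) at 79.6 FPKM, Ltbr (the lymphotoxin beta receptor) at 67.9 FPKM and Tnfrsf12a (Fn14, the TWEAK receptor) at 67.5 FPKM, followed by Tnfrsf1b (TNF receptor 2) at 25.5 FPKM, Traf4 at 17.3 FPKM and Tradd at 14.8 FPKM. The liver ranges of the first 3 overlap one another, while the lowest liver for Tnfrsf12a, at 54.0 FPKM, lies above the highest for Tnfrsf1b, at 31.3 FPKM. Of the 17 ligands, 12 lay under 0.5 FPKM.

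**Figure D2:**
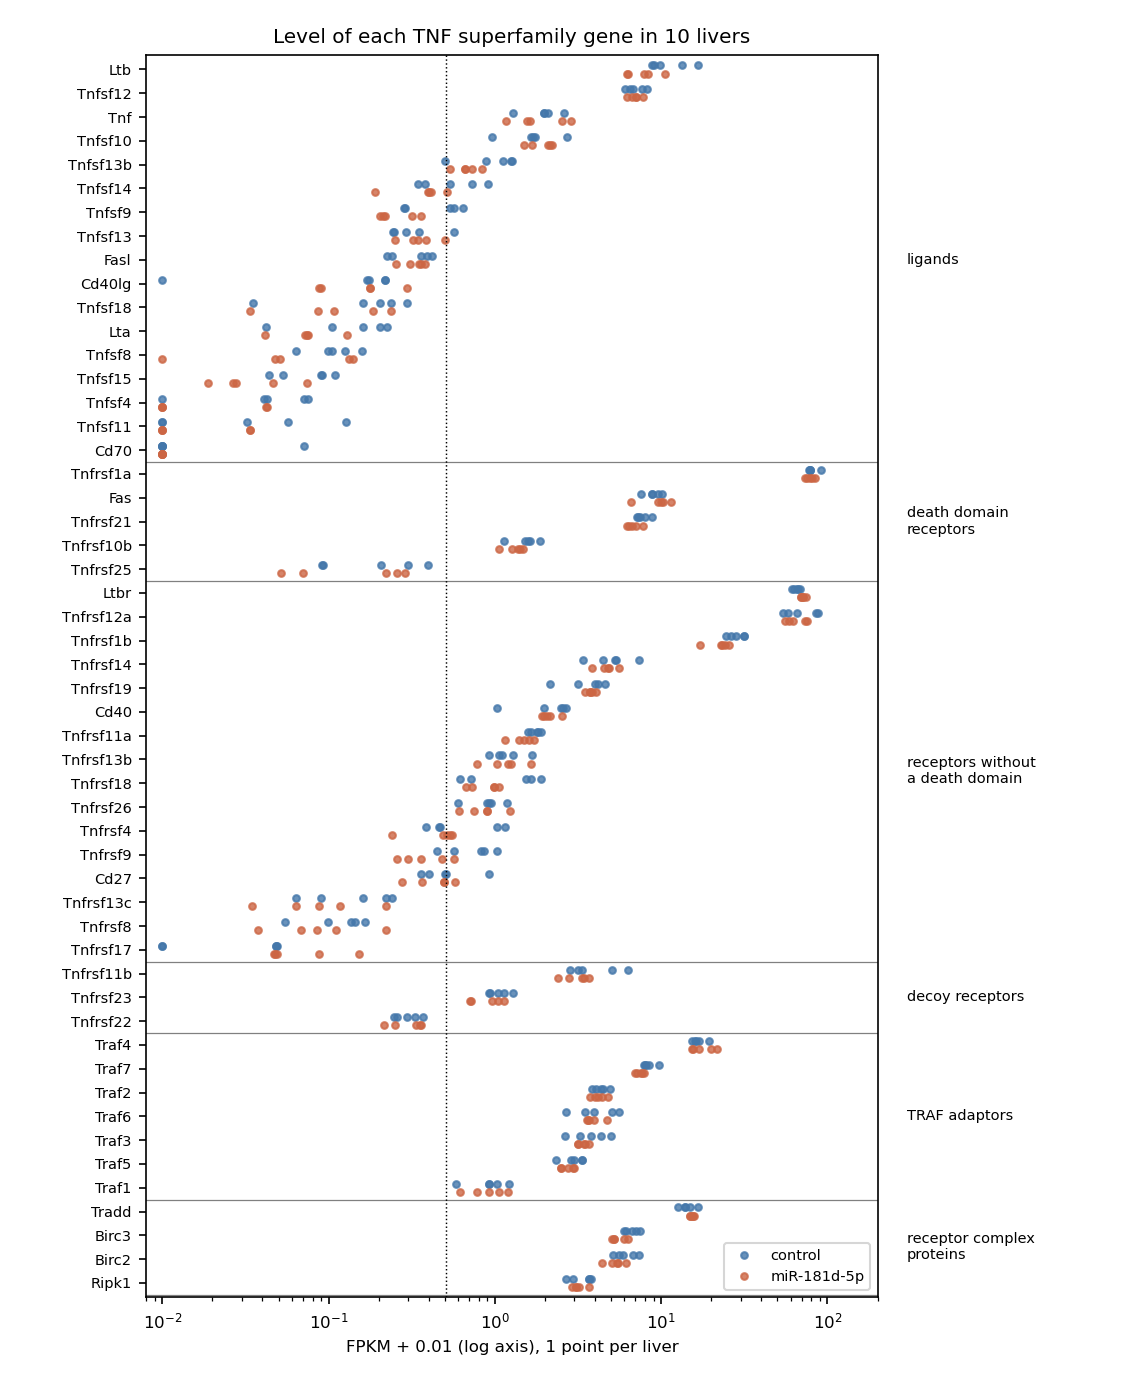
FPKM of the 52 members in each liver, on a log axis of FPKM + 0.01, ordered by role and mean. The dotted line is the filter at 0.5 FPKM, and 18 members have their mean below it.

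For the counts by role that follow, 54.5% of all genes tested were lower in mean log2 level. At an unadjusted p under 0.05, 9.63% of all genes were lower and 5.04% higher. Among ligands, 5 were tested, 4 of them lower and 1 higher in mean, with 2 at an unadjusted p under 0.05. Ltb, which joins lymphotoxin alpha in the membrane trimer that binds LTBR, was the most abundant (chromosome 17, 35194439 to 35196320, plus strand, mm10). In control livers 1 to 5 Ltb stood at 9.82, 13.3, 9.03, 16.6 and 8.76 FPKM, and in miR-181d-5p livers 1 to 5 at 8.37, 6.32, 10.5, 6.18 and 7.86 FPKM. Control livers 2 and 4 were the highest, 4 miR-181d-5p livers lay below every control, and miR-181d-5p liver 3 lay inside the control range. The mean was 68.3% of control, with a log2 change of -0.48 (SE 0.17, limma adjusted p = 0.268, two-sided exact permutation p = 0.0556). Over the 19 alternatives the change ran from -0.58 to -0.35, with an adjusted p from 0.164 to 0.553.

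Tnfsf13b encodes BAFF, a survival factor for B cells (chromosome 8, 10006467 to 10039072, plus strand). Its control values were 0.492, 1.24, 0.874, 1.26 and 1.12 FPKM, and its miR-181d-5p values 0.828, 0.714, 0.651, 0.649 and 0.527 FPKM. Control liver 1 was the lowest of all livers, and the other 4 controls lay above every miR-181d-5p liver. The log2 change was -0.24 (SE 0.11, limma adjusted p = 0.336, exact permutation p = 0.0873), and it rested on 206 reads over the 5 controls and 139 over the others. Its unadjusted p stayed under 0.05 in 5 of 18 alternatives, and the change was -0.50 by voom, which adds no pseudocount of 1.

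Tnf, the founding ligand and a product of activated macrophages, showed no such gap (chromosome 17, 35199381 to 35202007, minus strand). Its levels were 1.28, 2.09, 1.95, 2.59 and 1.96 FPKM in control livers and 2.85, 1.61, 2.52, 1.56 and 1.16 FPKM in miR-181d-5p livers. The highest and the lowest liver both belonged to the miR-181d-5p group. The log2 change of -0.04 had a 95% interval from -0.38 to 0.31, which leaves changes of either sign and of that size possible.

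Tnfsf10 encodes TRAIL, which binds the death receptor Tnfrsf10b. It measured 1.63, 2.69, 1.68, 1.72 and 0.949 FPKM in controls and 2.196, 2.14, 1.65, 1.49 and 2.09 FPKM in miR-181d-5p livers. The miR-181d-5p values all lay inside the control range, and the log2 change was 0.11 (SE 0.14). Tnfsf12, which encodes TWEAK, the ligand of Fn14, measured 6.01, 6.79, 6.48, 7.69 and 8.22 FPKM in controls and 7.08, 7.06, 7.74, 6.26 and 6.69 FPKM in miR-181d-5p livers. These groups overlapped fully, with a log2 change of -0.01 (SE 0.09).

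The 12 ligands under the filter were Lta, Fasl, Cd40lg, Cd70, Tnfsf4, Tnfsf8, Tnfsf9, Tnfsf11, Tnfsf13, Tnfsf14, Tnfsf15 and Tnfsf18. Cd70 was at 0 in 9 of the 10 livers, and Tnfsf4, Tnfsf8, Tnfsf11 and Cd40lg were at 0 in at least 1 liver. Tnfsf14 (LIGHT, a second ligand of LTBR) had the highest mean of the 12, 0.471 FPKM. Tnfsf9, the ligand of 4-1BB, stood at 0.452 ± 0.165 FPKM (SD, n = 5, 67 reads in all) in controls and at 0.252 ± 0.0717 FPKM (SD, n = 5, 37 reads in all) in miR-181d-5p livers, and was not part of the main test. Of all 18 members under the filter, 13 had the lower mean in miR-181d-5p livers. The share lower among all genes under the filter was not computed, and several of these means rest on few reads.

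Of the 4 death domain receptors tested, 3 were lower and 1 higher in mean, and 0 had an unadjusted p under 0.05. Tnfrsf1a, through which soluble TNF signals in most cells, was the most abundant member (chromosome 6, 125349362 to 125362484, plus strand). Its control livers gave 78.9, 78.4, 77.7, 91.1 and 78.4 FPKM and its miR-181d-5p livers 83.8, 75.3, 81.1, 78.2 and 72.8 FPKM. Control liver 4 stood apart at the top, and the other controls lay within the miR-181d-5p range. The log2 change was -0.05 with an interval from -0.19 to 0.10.

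Fas, the receptor of Fas ligand on hepatocytes and lymphocytes, was at 7.59, 8.84, 8.78, 9.51 and 10.1 FPKM in controls. In miR-181d-5p livers it was at 11.5, 6.61, 9.57, 9.92 and 10.3 FPKM, so that this group held both extremes (log2 change 0.07, SE 0.12). Tnfrsf10b, the only TRAIL death receptor of the mouse, was at 1.61, 1.56, 1.13, 1.52 and 1.85 FPKM in controls and 1.47, 1.05, 1.41, 1.37 and 1.25 FPKM in miR-181d-5p livers. Control liver 3 was low among its group, the groups overlapped, and the log2 change was -0.13 (SE 0.09, limma adjusted p = 0.488). Tnfrsf21, death receptor 6, had 4 of 5 miR-181d-5p livers below the lowest control, with means of 7.72 ± 0.708 and 6.81 ± 0.589 FPKM (SD, n = 5 each) and a limma adjusted p of 0.373. Tnfrsf25, death receptor 3, lay under the filter at 0.187 FPKM.

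Of the 12 receptors without a death domain that were tested, 9 were lower and 3 higher in mean log2 level. Tnfrsf9 and Tnfrsf1b were lower and Ltbr higher at an unadjusted p under 0.05. Cd40 is among the 3 by its log2 mean, while its mean FPKM was 98.4% of control. Tnfrsf9 encodes 4-1BB, a receptor that activated T and NK cells display (chromosome 4, 150914562 to 150946102, plus strand). In controls it stood at 0.441, 0.557, 1.02, 0.817 and 0.844 FPKM, and in miR-181d-5p livers at 0.349, 0.289, 0.247, 0.559 and 0.472 FPKM. Control livers 3 to 5 lay above every miR-181d-5p liver, while control liver 1 lay below miR-181d-5p livers 4 and 5, and control liver 2 just below miR-181d-5p liver 4.

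Tnfrsf9 means were 0.735 ± 0.232 and 0.383 ± 0.1298 FPKM (SD, n = 5 each), 52.1% of control, from 170 and 88 reads. The miR-181d-5p mean of Tnfrsf9 lies under the 0.5 FPKM filter, which the gene passed through its control livers. Its log2 change was -0.32 (SE 0.10, limma adjusted p = 0.24, exact permutation p = 0.0397). With a pseudocount of 0.1 the change was -0.78 and by voom -0.93, since adding 1 FPKM compresses differences at this level. The unadjusted p was under 0.05 in all 18 alternatives that tested it, and the adjusted p ran from 0.119 to 0.501.

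Tnfrsf1b encodes TNF receptor 2, which responds best to membrane TNF and is found mainly on immune and endothelial cells (chromosome 4, 145213463 to 145246870, minus strand). Its control livers stood at 26.2, 31.3, 28.1, 31.3 and 24.4 FPKM, and its miR-181d-5p livers at 24.3, 23.0, 25.7, 17.2 and 23.2 FPKM. Of the miR-181d-5p livers 4 lay below every control, liver 4 furthest, and liver 3 lay between control livers 5 and 1. The log2 change was -0.31 (SE 0.11, limma adjusted p = 0.256, exact permutation p = 0.0159), 80.2% of the control mean. Only miR-181d-5p liver 3 and control liver 5 crossed, so leaving out either one separates the groups by construction.

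Ltbr was the only tested member whose groups did not overlap, in a direction that 1.02% of all genes shared (chromosome 6, 125306571 to 125313885, minus strand). It encodes the receptor of lymphotoxin and LIGHT, present on hepatocytes and stromal cells. Control livers read 66.0, 61.0, 66.6, 68.1 and 62.6 FPKM and miR-181d-5p livers 68.9, 71.3, 71.7, 74.0 and 69.2 FPKM. All 5 miR-181d-5p livers lay above the highest control, by less than 1 FPKM at the nearest pair. The log2 change was 0.13 (SE 0.06, limma adjusted p = 0.326), and the exact permutation p of 0.00794 is the smallest that 5 against 5 livers can give. Its unadjusted p stayed under 0.05 in 8 of 19 alternatives, and the groups overlapped with a common FPKM sum, with quantile normalization and with the gene length trend removed.

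**Figure D3:**
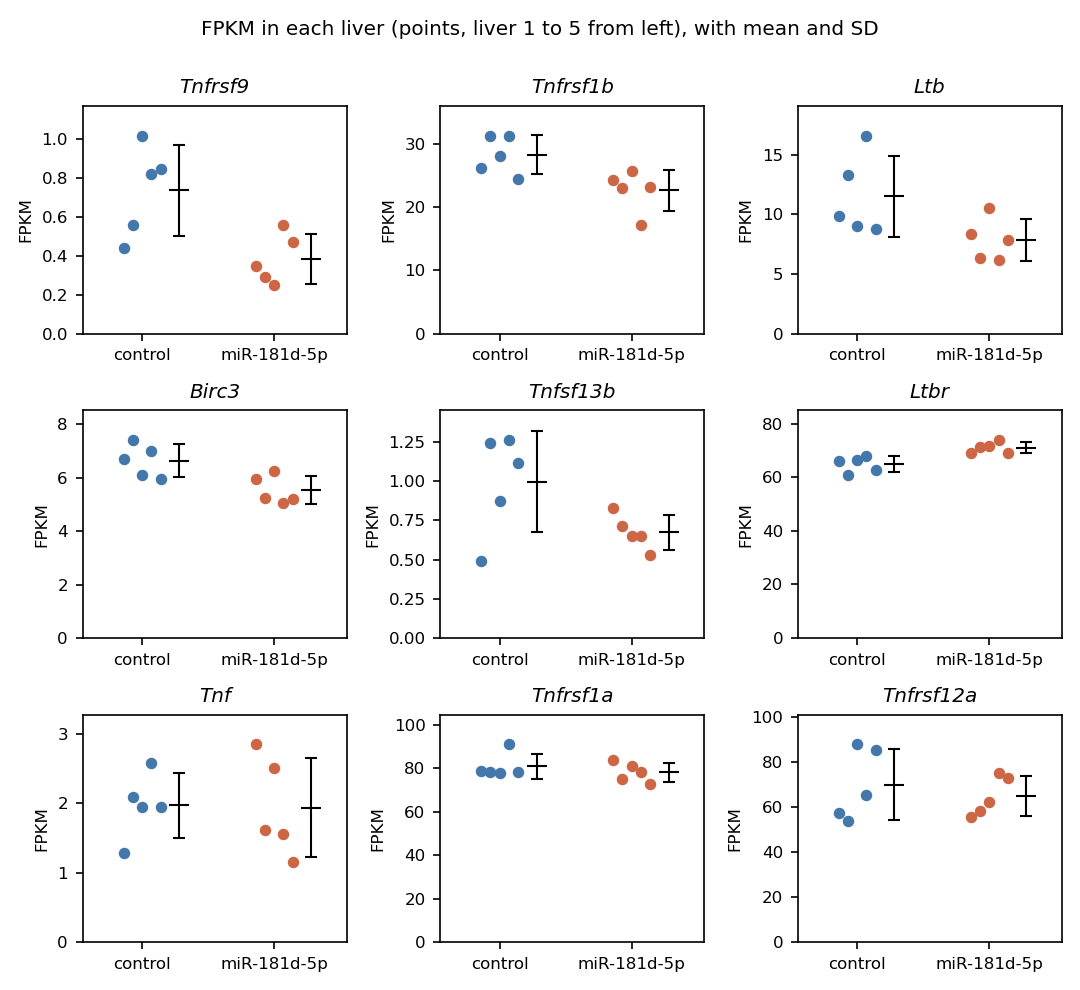
FPKM per liver of 9 members (Tnfrsf9, Tnfrsf1b, Ltb, Birc3, Tnfsf13b, Ltbr, Tnf, Tnfrsf1a and Tnfrsf12a), with each group's mean and SD. Ltbr is the only one of the 9 in which every miR-181d-5p liver lies above every control, and in Tnfrsf1a control liver 4 stands apart at 91.1 FPKM.

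Ltb and its receptor thus had changes of opposite sign, and the paired TNF receptors had changes of unequal size, so ratios within a liver were computed, chosen after their values were seen and not tested. Ltb per Ltbr averaged 0.177 ± 0.0501 (SD, n = 5) over controls against 0.111 ± 0.0258 (SD, n = 5) over miR-181d-5p livers. Only miR-181d-5p liver 3, at 0.147, reached into the control range. Tnfrsf1b per Tnfrsf1a averaged 0.350 ± 0.0332 (SD, n = 5) over controls against 0.290 ± 0.0410 (SD, n = 5) over miR-181d-5p livers. Control liver 5, at 0.312, lay below miR-181d-5p livers 3 and 5, at 0.316 and 0.318.

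Tnfrsf12a encodes Fn14, an inducible receptor of injured hepatocytes and progenitor cells (chromosome 17, 23675445 to 23677468, minus strand). It was at 57.6, 54.0, 87.9, 65.3 and 85.5 FPKM in controls and at 55.5, 58.3, 62.2, 75.4 and 73.1 FPKM in miR-181d-5p livers. Control livers 3 and 5 were high, the miR-181d-5p values all fell inside the control range, and the log2 change was -0.09 (SE 0.14). Cd40, a receptor of B cells, macrophages and endothelium, was at 1.02, 1.97, 2.57, 2.68 and 2.49 FPKM in controls and at 2.54, 1.91, 2.13, 2.04 and 1.95 FPKM in miR-181d-5p livers. Control liver 1 was the lowest, and the change of 0.01 (SE 0.15) took the other sign in 5 of 19 alternatives.

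The remaining tested receptors of this class were Tnfrsf11a (RANK), Tnfrsf13b (TACI, a BAFF receptor), Tnfrsf14 (HVEM), Tnfrsf18 (GITR), Tnfrsf4 (OX40), Tnfrsf19 (TROY) and Tnfrsf26. Their log2 changes ran from -0.24 for Tnfrsf18 to 0.08 for Tnfrsf19, none with an unadjusted limma p under 0.05. The lymphocyte receptors Tnfrsf18 and Tnfrsf4 had means of 68.7% and 66.4% of control, with control livers 3 and 4 high in both. Tnfrsf11a had 3 miR-181d-5p livers below the lowest control (log2 change -0.16, limma adjusted p = 0.358, exact permutation p = 0.0397). Cd27, Tnfrsf8 (CD30), Tnfrsf13c (the BAFF receptor) and Tnfrsf17 (BCMA) lay under the filter, with Cd27 highest at 0.479 FPKM.

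Decoy receptors bind ligand without signalling. Tnfrsf11b, osteoprotegerin, which binds RANK ligand and TRAIL, was at 3.31, 3.17, 5.08, 2.83 and 6.29 FPKM in controls and at 3.42, 2.79, 3.70, 2.40 and 3.34 FPKM in miR-181d-5p livers. Control livers 3 and 5 were high and the rest of the 2 groups intermixed (log2 change -0.28, SE 0.17, limma adjusted p = 0.442). Tnfrsf23 had a log2 change of -0.11 (SE 0.08), and Tnfrsf22 lay under the filter at 0.292 FPKM. Tnfrsf22, Tnfrsf23 and Tnfrsf26 are neighbouring, similar genes on chromosome 7, so reads split between them are uncertain.

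TRAF proteins are the adaptors and ubiquitin ligases of the receptor tails. Of the 7, 6 were lower and 1 (Traf4) higher in mean, and 0 had an unadjusted limma p under 0.05. Traf2, which brings cIAP1 and cIAP2 to TNF receptors, was at 4.03, 4.47, 4.36, 4.91 and 3.83 FPKM in controls and at 4.41, 4.004, 4.79, 3.71 and 4.18 FPKM in miR-181d-5p livers. The groups intermixed, and the log2 change of -0.03 (SE 0.08) took the other sign in 4 of 19 alternatives.

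Traf1, an NF-kB target that pairs with TRAF2, was at 1.21, 0.573, 0.911, 1.01 and 0.916 FPKM in controls and at 1.19, 0.604, 0.912, 0.775 and 1.05 FPKM in miR-181d-5p livers. Traf3, which holds the NF-kB-inducing kinase NIK in check, was at 4.36, 4.96, 3.24, 3.80 and 2.63 FPKM in controls and at 3.46, 3.15, 3.69, 3.15 and 3.43 FPKM in miR-181d-5p livers. Both had miR-181d-5p values inside the control range, with log2 changes of -0.01 (SE 0.10) for Traf1 and -0.11 (SE 0.12) for Traf3.

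Traf6, which serves CD40, RANK and the interleukin-1 and Toll-like receptors, was at 5.53, 5.06, 3.48, 3.92 and 2.66 FPKM in controls and at 3.68, 3.61, 3.57, 3.95 and 4.72 FPKM in miR-181d-5p livers. Its control livers spread more widely than the miR-181d-5p livers, and the log2 change was -0.04 (SE 0.14). Traf4 was the most abundant adaptor, with means of 16.7 ± 1.552 FPKM (SD, n = 5) for controls and 17.9 ± 2.77 FPKM (SD, n = 5) for miR-181d-5p livers. Traf7 had 4 of 5 miR-181d-5p livers below the lowest control, with a log2 change of -0.15 (SE 0.07, limma adjusted p = 0.353, exact permutation p = 0.0159). Its exons overlap those of Caskin1 and Rab26, each at a mean of 0.02 FPKM. Traf5 had a log2 change of -0.09 (SE 0.09).

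Of the 4 proteins of the receptor complex, 3 were lower and 1 higher in mean, with 1 (Birc3) at an unadjusted p under 0.05. Birc3 encodes cIAP2, a ubiquitin ligase of RIPK1 and itself an NF-kB target (chromosome 9, 7848699 to 7873186, minus strand). It was at 6.68, 7.41, 6.12, 7.01 and 5.95 FPKM in controls and at 5.93, 5.22, 6.27, 5.05 and 5.20 FPKM in miR-181d-5p livers. Only miR-181d-5p liver 3 lay inside the control range, and liver 1 lay just under its lower end. The log2 change was -0.22 (SE 0.08, limma adjusted p = 0.269, exact permutation p = 0.0317), and the unadjusted p stayed under 0.05 in all 19 alternatives.

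Birc2, cIAP1, was at 5.56, 6.80, 5.90, 7.30 and 5.12 FPKM in controls and at 5.53, 5.38, 6.15, 4.39 and 5.07 FPKM in miR-181d-5p livers. The groups overlapped, with a log2 change of -0.18 (SE 0.10, limma adjusted p = 0.429). Tradd, the first adaptor of TNF receptor 1, was at 13.9, 12.5, 16.5, 14.8 and 13.9 FPKM in controls and at 15.5, 14.9, 15.7, 15.4 and 14.9 FPKM in miR-181d-5p livers. Control liver 3 was the highest, and the other 4 controls lay below every miR-181d-5p liver (log2 change 0.09, SE 0.07, limma adjusted p = 0.560).

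Ripk1, the kinase on which survival and death signals meet, was at 3.66, 3.75, 2.94, 3.66 and 2.65 FPKM in controls and at 3.18, 2.89, 3.08, 3.05 and 3.65 FPKM in miR-181d-5p livers. The miR-181d-5p values lay inside the control range (log2 change -0.05, SE 0.09). Ripk1 shares 241 exon bases with Serpinb6a on the opposite strand, which stood at 64.9 FPKM, and the strand setting of the read counting is unknown, so reads of this pair may be shared.

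**Figure D4:**
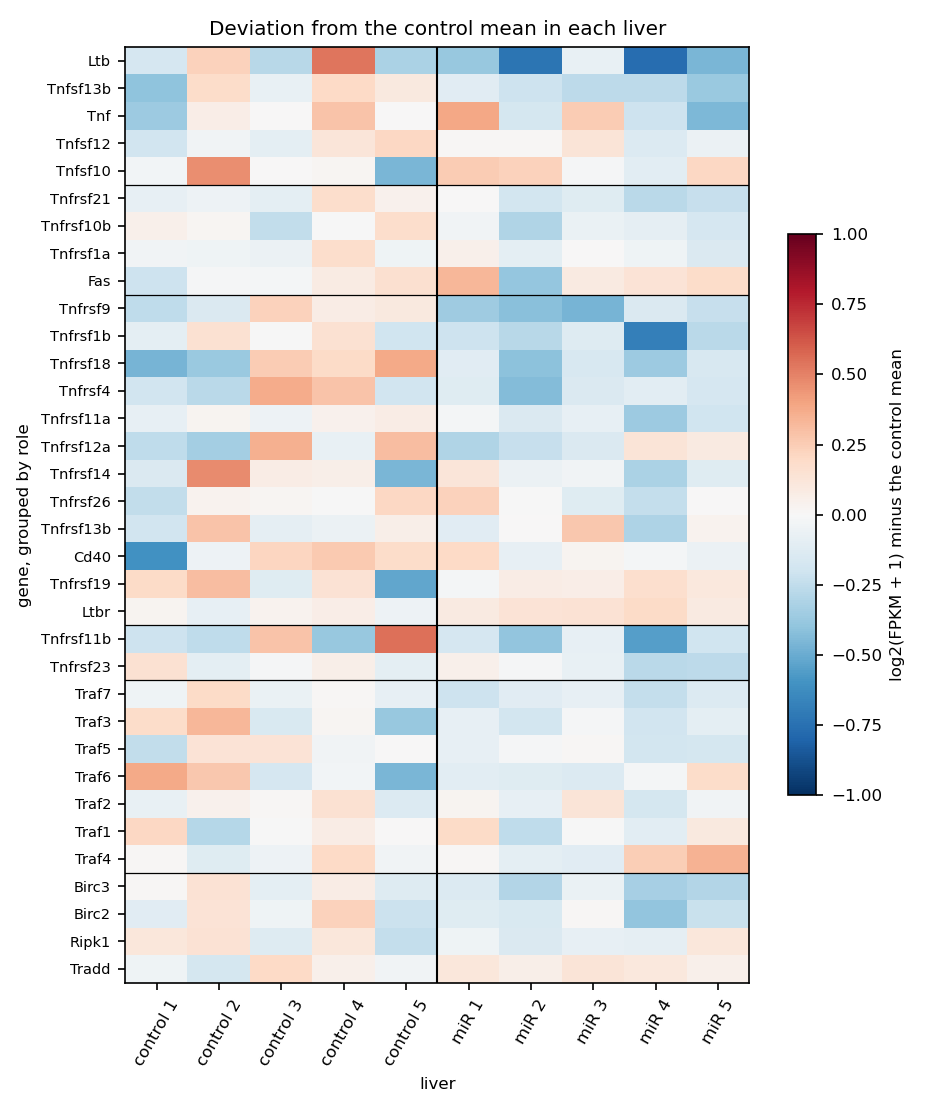
Log2(FPKM + 1) of each tested member in each liver, as the deviation from the control mean, members by role. Livers miR_2 and miR_4 lie below the control mean for 28 of the 34 members each, and control liver 4 for 7.

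Liver by liver, the median deviation of the 34 members from the control mean was -0.09, 0.03, -0.02, 0.08 and -0.04 in control livers 1 to 5. In miR-181d-5p livers 1 to 5 it was -0.02, -0.14, -0.07, -0.18 and -0.13. Control liver 1 thus lay below miR-181d-5p livers 1 and 3, and the groups overlapped. Over all tested genes the same medians ran from -0.07 to 0.05, and miR-181d-5p liver 4 was the lowest there too, at -0.07. Control livers varied more among themselves for 24 of the 34 members (70.6%), as they did for 76.1% of all genes.

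The members with a seed match had a median change nearer to 0 than the others, a difference that was not tested. Of the 12 with a match, 10 were lower and 2 higher, with a median log2 change of -0.04. Of the 22 without, 17 were lower and 5 higher, with a median of -0.09. The 5 members with an 8mer had a median of -0.04, from 4 lower and 1 higher. Of the 6 members at an unadjusted p under 0.05, only Ltb had a match.

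Promoters were searched for the 10-letter NF-kB (kappa-B) consensus on both strands, overlapping matches merged, in RefSeq windows from 250 bases before to 50 bases after the start (GRCm38.p6). An entry was found for 41 of the 52 members. A match was present in 3 of 28 tested members with an entry (10.7%) and in 610 of 9659 tested genes with one (6.32%). The 3 were Ltb, Tnfrsf9 and Traf3, and Tnfrsf8 below the filter also had one. The promoters of Ltb and Tnfrsf9 are printed because both genes were lower at an unadjusted p under 0.05. Capitals mark the match, which begins 87 bases before the start in Ltb and lies on its minus strand. In Tnfrsf9 overlapping matches form 1 run. In both Ltb and Tnfrsf9 the RefSeq start used lies inside the GENCODE gene, so distances from the GENCODE start differ.
Ltb, chr17:35194257-35194556 (+): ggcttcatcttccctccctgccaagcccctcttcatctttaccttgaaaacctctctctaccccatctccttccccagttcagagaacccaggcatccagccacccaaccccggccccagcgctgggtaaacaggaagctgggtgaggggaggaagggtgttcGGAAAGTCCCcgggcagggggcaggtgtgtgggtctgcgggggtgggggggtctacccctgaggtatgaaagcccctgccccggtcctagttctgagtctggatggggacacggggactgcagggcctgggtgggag
Tnfrsf9, chr4:150927749-150928048 (+): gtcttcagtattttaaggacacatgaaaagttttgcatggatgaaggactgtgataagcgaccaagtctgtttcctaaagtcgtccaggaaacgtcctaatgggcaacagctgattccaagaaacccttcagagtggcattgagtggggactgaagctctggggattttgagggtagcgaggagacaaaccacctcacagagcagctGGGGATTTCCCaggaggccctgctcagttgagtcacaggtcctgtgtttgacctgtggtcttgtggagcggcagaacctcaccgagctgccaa

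Genes around the receptors were read from lists chosen with earlier results of these data known, and 0 of their genes had an adjusted p under 0.05. For the counts that follow, 54.5% of all genes tested were lower in mean. At an unadjusted p under 0.05, 9.63% of all genes were lower and 5.04% higher. All 4 sheddases and their regulators were lower in mean, led by Rhbdf2, which carries the TNF-releasing protease ADAM17 to the surface (10.8 ± 0.940 and 9.08 ± 1.23 FPKM, SD, n = 5 each, limma adjusted p = 0.306). Of 19 NF-kB subunits, inhibitors and kinases, 11 were lower and 8 higher, with a median log2 change of -0.04. Rel and Nfkb1, both DNA-binding subunits, were lower at an unadjusted p under 0.05 (73.1% and 84.3% of control), and Chuk, the kinase IKK alpha, was higher (115.3%).

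Of 11 genes of ubiquitin editing, 8 were lower and 3 higher, and Tnfaip3, the NF-kB-induced brake A20, had the smallest p (9.25 ± 2.03 and 6.98 ± 0.610 FPKM, SD, n = 5 each, limma adjusted p = 0.257). Of 10 genes of death signalling, 8 were lower and 2 higher. Fadd, which links death receptors to caspase-8, was the higher one at an unadjusted p under 0.05, with 4.46 ± 0.557 FPKM in controls (SD, n = 5) against 5.86 ± 0.700 FPKM (SD, n = 5, limma adjusted p = 0.239). Tnfaip8 was lower (73.7% of control). The 9 MAP kinases were divided, 4 lower and 5 higher, with 0 at an unadjusted p under 0.05.

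Of 23 TNF and NF-kB response genes tested, 19 were lower and 4 higher (82.6% lower, against 54.5% of all genes tested), with a median log2 change of -0.12. At an unadjusted p under 0.05, 3 were lower, as were 9.63% of all genes tested. These were Vcam1, an adhesion molecule (70.4% of control), Gadd45b, a stress-response gene (61.2%), and Bcl2a1d, a survival gene of leukocytes (75.3%). Of the family receptors and ligands outside the rule, Eda and Eda2r were lower and Ngfr higher in mean, none at an unadjusted p under 0.05.

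Markers of several cell types also stood lower in miR-181d-5p livers, and in bulk tissue fewer cells of a type and less RNA per cell cannot be told apart. Beside the marker counts, 54.5% of all genes tested were lower in mean. The shares at an unadjusted p under 0.05 were 9.63% lower and 5.04% higher. Of 9 T and NK cell markers tested, 8 were lower and 1 higher, with 3 lower at an unadjusted p under 0.05, among them Cd4 and Cd3d. The higher one was Gzma (175.6% of control). Their summed level ran from 13.8 to 30.5 FPKM in controls and from 13.5 to 24.3 FPKM in miR-181d-5p livers. Ltb, Tnfrsf9, Tnfrsf18 and Tnfrsf4, genes of lymphocytes, were lower in mean, but not every lymphocyte member was. Tnfrsf13b was at 97.7% of control. Under the filter, Fasl and Cd40lg were at 101.4% and 105.3% of control, and Cd27 and Lta at 81.8% and 49.9%. The part of lymphocytes in these values was not tested.

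Of 12 macrophage markers, 9 were lower and 3 higher, summing to 2459 to 3471 FPKM in controls and 1945 to 3139 FPKM in miR-181d-5p livers, with 4 lower and 1 higher at an unadjusted p under 0.05. Adgre1 and Mpeg1 were lower without overlap, as were 1.45% of all genes tested. Marco, a scavenger receptor, was the higher one (118.2% of control). All 12 stellate cell and fibroblast markers were lower (495.5 to 718.1 FPKM in controls, 366.1 to 497.3 FPKM in miR-181d-5p livers), as were all 8 cholangiocyte markers tested (277.2 to 516.4 and 118.2 to 378.3 FPKM). At an unadjusted p under 0.05, 9 of the stellate cell and fibroblast markers and 5 of the cholangiocyte markers were lower. The cholangiocyte sum was mostly Spp1, which averaged 329.3 FPKM in controls and 204.1 FPKM in miR-181d-5p livers. Endothelial markers were lower in 7 of 10 (146.5 to 168.4 and 144.8 to 153.4 FPKM), 4 of them at an unadjusted p under 0.05. The part of these cells in the values of Tnfrsf1b and Birc3 was not tested.

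B and plasma cell markers were divided, 3 lower and 3 higher, and summed to 93.6 to 100.5 FPKM in controls and 87.7 to 117.2 FPKM in miR-181d-5p livers. This sum was mostly Sdc1, which averaged 79.9 FPKM in controls and 89.3 FPKM in miR-181d-5p livers, so it says little about the other markers. Neutrophil markers were lower in 6 of 8 (54.6 to 123.7 and 55.9 to 89.1 FPKM), and dendritic cell markers in 7 of 8 (254.8 to 425 and 298.8 to 343.2 FPKM). The livers carried their defining genes: hepatocyte markers summed to 31650 to 37980 FPKM in controls and 32310 to 36720 FPKM in miR-181d-5p livers, with 4 of 10 lower and 6 higher, and no marker of any list was at 0 in all livers. Ly6g and Ngp of the neutrophil list were at 0 in at least 1 liver.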

How the data were processed

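RNA from 10 mouse livers was made into stranded poly(A) libraries, per the labels' protocols. The authors deposited 1 table of FPKM for 17274 genes, 1 column per liver. Per the submitters' processing notes, the tools, with no role or order given, included HISAT2 2.2.1, HTSeq 0.13.5, Trimmomatic 0.38, FastQC 0.11.9, DESeq2 1.18.1 and R 3.4.1, and the build was mm10. The FPKM formula and strand setting are not stated there. Column names gave each liver's group and number. Whole reads were recovered (tolerance 0.02 reads) for 17273 of 17274 genes (99.994%), with a median of 497 reads per tested gene and liver. The shortest gene length that gave whole reads in every liver was taken, so read numbers are the fewest that fit. Livers of a group differed by a chi-square of at least 9.51 per degree of freedom, so no library was counted as a copy.

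The fit used limma 3.58.1 (R 4.3.3; lmFit and trended eBayes, group alone, two-sided) on log2(FPKM + 1) for genes averaging 0.5 FPKM or more, with Benjamini-Hochberg adjustment over 12053 genes at 0.05. Folds on this scale understate the change of low genes. Exact permutation tests used all 252 labellings. The code was tested on simulated data. Members and lists were chosen with earlier results of these data known. Values in every liver are given for members with an unadjusted p under 0.05 or groups without overlap, and for 21 members picked for their roles, whatever their values. Pathway lists are described by counts and up to 3 genes with the smallest p. Of the marker lists, Trac and Ighm were not used here.

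Alternatives were a pseudocount of 0.1, no filter, a filter at 1 FPKM, a common FPKM sum, quantile normalization, array weights, limma voom, a replicate block and leaving out each liver. Removal of a gene length trend (lowess, span 0.3) was chosen after seeing the data. Gene positions and 3' UTRs come from GENCODE vM21, and microRNA and promoter sequences from RefSeq (GRCm38.p6), matched by symbol.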

Additional observations from a re-analysis of the deposited data

Results flagged for a closer look

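In groups of 5 livers, a value was picked out when its gap to the nearest liver, divided by the group's range, passed Dixon's 95% critical value. Of the 22 members named by rule, only Tnfrsf1a had such a liver: control liver 4 stood at 91.06 FPKM, while the other controls lay between 77.7 and 78.9 FPKM. Chance picks out about 1 in 20 groups, and 44 groups were examined.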

How the results depend on the processing

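No member had an adjusted p under 0.05 in any of the 19 alternatives. The count of all genes past that threshold was 0 as reported and 1 (Ccn2) with a replicate block, and leaving out 1 liver gave 0 to 3 (3 without control liver 1, 1 without control liver 5 and 1 without miR-181d-5p liver 3). The replicate block gave 1220 genes and 5 members at an unadjusted p under 0.05. Same-numbered livers did not deviate together (correlations from -0.283 to 0.015, 0 of 5 best with their own number), so the numbers were not taken as pairs. Genes at an unadjusted p under 0.05 were 1768 as reported and 1071 (without miR-181d-5p liver 4) to 2587 (without control liver 5) with 1 liver left out. Tested members without overlap were 1 as reported, 0 with a common FPKM sum and 2 (Birc3 and Traf7) with the gene length trend removed. With quantile normalization the 1 member was Birc3, not Ltbr. With 1 liver left out the count ran from 1 to 5 (5 without miR-181d-5p liver 3). The share of all genes without overlap was not computed in these settings, and groups with fewer livers separate more easily. These counts are therefore not read as a result about the members.

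Of the named members, Birc3, Ltb, Tnfrsf1b and Tnfrsf9 kept an unadjusted p under 0.05 in every alternative that tested them. Changes near 0 took the other sign, and the cause was not tested. With quantile normalization the log2 changes were 0.0172 for Ripk1, 0.0374 for Tnf, 0.0352 for Tnfsf12, 0.0415 for Traf1, 0.0373 for Traf2 and 0.0201 for Traf6. With the gene length trend removed they were 0.0623 for Ripk1, 0.0143 for Traf1, 0.0237 for Traf2, 0.0300 for Traf6 and -0.0149 for Cd40. Array weights gave 0.0090 for Tnfsf12 and -0.0192 for Cd40, and a common FPKM sum -0.0013 for Cd40. With 1 liver left out the changes ran from -0.1385 to 0.0785 for Cd40, -0.1419 to 0.0671 for Tnf, -0.0007 to 0.2292 for Tnfsf10, -0.0567 to 0.0419 for Tnfsf12, -0.0849 to 0.0459 for Traf1, -0.0662 to 0.0107 for Traf2 and -0.1528 to 0.0558 for Traf6. Depth limits the low members: Cd70 was at 0 in 9 of the 10 livers. Without the filter all 52 members were tested, and 40 were lower. An unadjusted p under 0.05 was found for 8 of the 52, 7 lower and 1 higher, among them Tnfsf9 and Tnfsf15, which lie under 0.5 FPKM. In the same fit 2185 of the 17274 genes in the table passed that threshold, 1424 lower and 761 higher. Median changes there were -0.05 for members and -0.01 for all genes. The 8 members are therefore not read as an excess.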
